A study of Mus musculus with 30 samples.

Results

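The chemokine genes described here are 10 that myeloid cells are known to make, measured in sorted macrophages: Ccl2, Ccl3, Ccl4, Ccl5, Ccl6, Ccl7, Ccl9, Ccl12, Cxcl2 and Cxcl16. Every probe whose platform symbol, or an older synonym of it, is one of these names was taken, which gave 15 probes for the 10 genes. All 10 genes had a probe that passed the filter on dim signals, among 11937 genes tested. The data are 30 single-colour bead arrays of F4/80-positive macrophages that were flow-sorted from bone marrow (BM) or spleen (SP) of C57BL/6 mice. All mice, controls included, carried the TCL1 transgene (TCL1+/wt), which the Eµ promoter and enhancer drive in B cells, so no group is free of it. Mice were Mif+/+ (wild type, WT) or Mif-/- (knockout, KO), Mif being the gene of macrophage migration inhibitory factor, and were labelled as leukaemic (l) or not (nl). There were 3 arrays each of WT-nl-BM, KO-nl-BM, WT-nl-SP, KO-nl-SP and WT-l-SP, 4 of KO-l-SP, 5 of WT-l-BM and 6 of KO-l-BM. The labels give 2 to 5 months as the age of leukaemic and 10 to 15 months as that of non-leukaemic mice, so age and leukaemia cannot be told apart, and whether the labels give these ages in the right order is not known. Nothing in them ties arrays to animals, and a p-value here covers only the spread from array to array.

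Chemokines are small secreted proteins that guide leukocytes through G protein-coupled receptors. Ccl3, Ccl4 and Ccl5 draw T cells, NK cells and monocytes, and Ccl3 and Ccl5 act on Ccr1. Ccl2, Ccl7 and Ccl12 are ligands of Ccr2, the receptor by which monocytes leave the marrow. Ccl6 and Ccl9 are rodent ligands of Ccr1 that myeloid cells make at steady state, Cxcl2 calls neutrophils through Cxcr2, and Cxcl16 is a membrane-bound ligand of Cxcr6 that Adam10 can shed. In macrophages several of these genes are known early targets of NF-kB.

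On chromosome 11 lie 9 of the genes, in the order Cxcl16, Ccl2, Ccl7, Ccl12, Ccl5, Ccl9, Ccl6, Ccl3, Ccl4, and Cxcl2 lies on chromosome 5. RefSeq windows of 300 bases around the start of the gene (250 before it and 50 from it on, GRCm38.p6) were at hand for 5 of the 10 genes, Ccl3, Ccl6, Ccl9, Ccl12 and Cxcl2. Of these, 3 are shown because the genes carry contrasting patterns below: Ccl3 differed between tissues, Ccl9 did not pass the test in any comparison, and Cxcl2 was the member with the smallest p for leukaemia in marrow. Capitals mark matches, on either strand, to a kB-like motif GGNNTTTCC or an AP-1 motif TGANTCA.
Ccl3 (chr11:83649329-83649628, minus strand): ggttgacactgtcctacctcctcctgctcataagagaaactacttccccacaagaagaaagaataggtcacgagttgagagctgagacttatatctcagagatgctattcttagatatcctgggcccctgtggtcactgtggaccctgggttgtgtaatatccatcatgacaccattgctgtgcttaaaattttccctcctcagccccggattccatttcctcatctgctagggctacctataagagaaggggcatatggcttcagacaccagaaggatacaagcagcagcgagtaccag
Ccl9 (chr11:83578587-83578886, minus strand): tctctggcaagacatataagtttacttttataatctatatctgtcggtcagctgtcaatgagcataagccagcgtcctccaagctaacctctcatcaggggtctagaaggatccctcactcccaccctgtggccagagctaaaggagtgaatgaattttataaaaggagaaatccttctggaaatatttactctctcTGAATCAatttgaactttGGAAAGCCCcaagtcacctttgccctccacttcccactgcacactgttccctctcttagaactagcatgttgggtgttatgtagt
Cxcl2 (chr5:90903649-90903948, plus strand): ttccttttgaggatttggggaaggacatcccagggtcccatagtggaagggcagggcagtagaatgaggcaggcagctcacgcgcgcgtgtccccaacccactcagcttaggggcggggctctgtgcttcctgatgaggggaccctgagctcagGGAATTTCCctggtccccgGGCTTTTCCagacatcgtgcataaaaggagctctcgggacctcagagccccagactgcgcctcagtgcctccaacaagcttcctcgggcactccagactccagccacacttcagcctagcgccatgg
Cxcl2 held 2 kB-like matches, starting 96 and 77 bases before the start, and Ccl9 held 1 on the opposite strand, 35 bases before it, beside 1 AP-1 match 53 bases before it. None of these matches overlapped another. Ccl3, Ccl6 and Ccl12 held neither motif in this window. Of all 32851 windows in the RefSeq table, 5.82% held the kB-like and 7.81% the AP-1 motif. The windows of Ccl6 and Ccl9 share a stretch, shown because their probes also moved together over the arrays. Capitals mark the 4 of 40 bases that differ.
Ccl6 (chr11:83593073-83593112, minus strand): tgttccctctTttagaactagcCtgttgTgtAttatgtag
Ccl9 (chr11:83578588-83578627, minus strand): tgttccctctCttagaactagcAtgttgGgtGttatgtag
The stretch runs from 25 bases before to base 15 of the gene in Ccl6 and from base 10 to base 49 in Ccl9. No other pair of the 5 windows had a best local alignment longer than 17 columns.

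The arrays had a raw median intensity of 76.5 to 96.8 and 16492 to 18567 detected probes. Slide 6 held only leukaemic marrow, 3 WT-l-BM and 3 KO-l-BM arrays, with raw medians of 92.0 to 96.8. The highest raw median on any other slide was 91.1. Slide can therefore in part not be told apart from leukaemia in marrow, nor from tissue. Mif separated the genotypes on each array, at 10.41 to 12.38 on wild-type and at most 5.07 on knockout arrays (normalised log2 intensity). Adgre1, the gene of the F4/80 antigen, was detected on all arrays. Earlier results of these data had set 5 arrays apart from their groups: KO-l-SP replicate 2, WT-nl-SP replicate 1, WT-l-SP replicate 3, KO-nl-BM replicate 1 and KO-nl-SP replicate 5. The sorted fractions also held RNA of other cells: the summed normalised intensity of 18 neutrophil genes was 16824 to 121983 on marrow and 1851 to 123002.5 on spleen arrays, and that of 17 T and NK cell genes was 371 to 2889 on marrow and 272 to 13052 on spleen arrays. WT-l-SP replicate 3 carried the highest intensity of Ccl3, Ccl4, Ccl5 and Cxcl2 among the 30 arrays, and WT-nl-SP replicate 1 the lowest sum of T and NK cell genes. Arrays measure a mixture, so fewer cells of a type and less RNA per cell cannot be told apart.

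The genes differed in how often they were seen. Ccl3, Ccl4, Ccl6 and Ccl9 were detected (detection p under 0.05) on all 30 arrays, Ccl5 and Cxcl2 on 29 and Cxcl16 on 27. Ccl2 was detected on 17 arrays, 12 of 17 from marrow and 5 of 13 from spleen. Ccl12 was detected on 8 and Ccl7 on 4 arrays by the probes used in the fit, so the Ccr2 ligands were near or below background in most of these macrophage samples. The second probes were detected on 25 arrays for Cxcl2, 14 for Cxcl16, 4 for Ccl12 and 2 for Ccl7, and on all 30 for Ccl4. Over the arrays the intensity of the Ccl5 probe had the widest span, from 75.8 to 9103, 120-fold, followed by Ccl4 with 55.5-fold and Ccl3 with 19.3-fold. Ccl6 spanned 4.02-fold and Ccl9 5.26-fold, so these rodent Ccr1 ligands varied least among the genes detected on all arrays. Tissue accounted for 60.6% of the variation of Ccl4 in normalised log2 intensity, 37.1% of that of Ccl5, 24.0% for Cxcl16 and 20.6% for Ccl3, against 1.22% for Ccl6 and 0.44% for Ccl9.

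**Figure D1:**
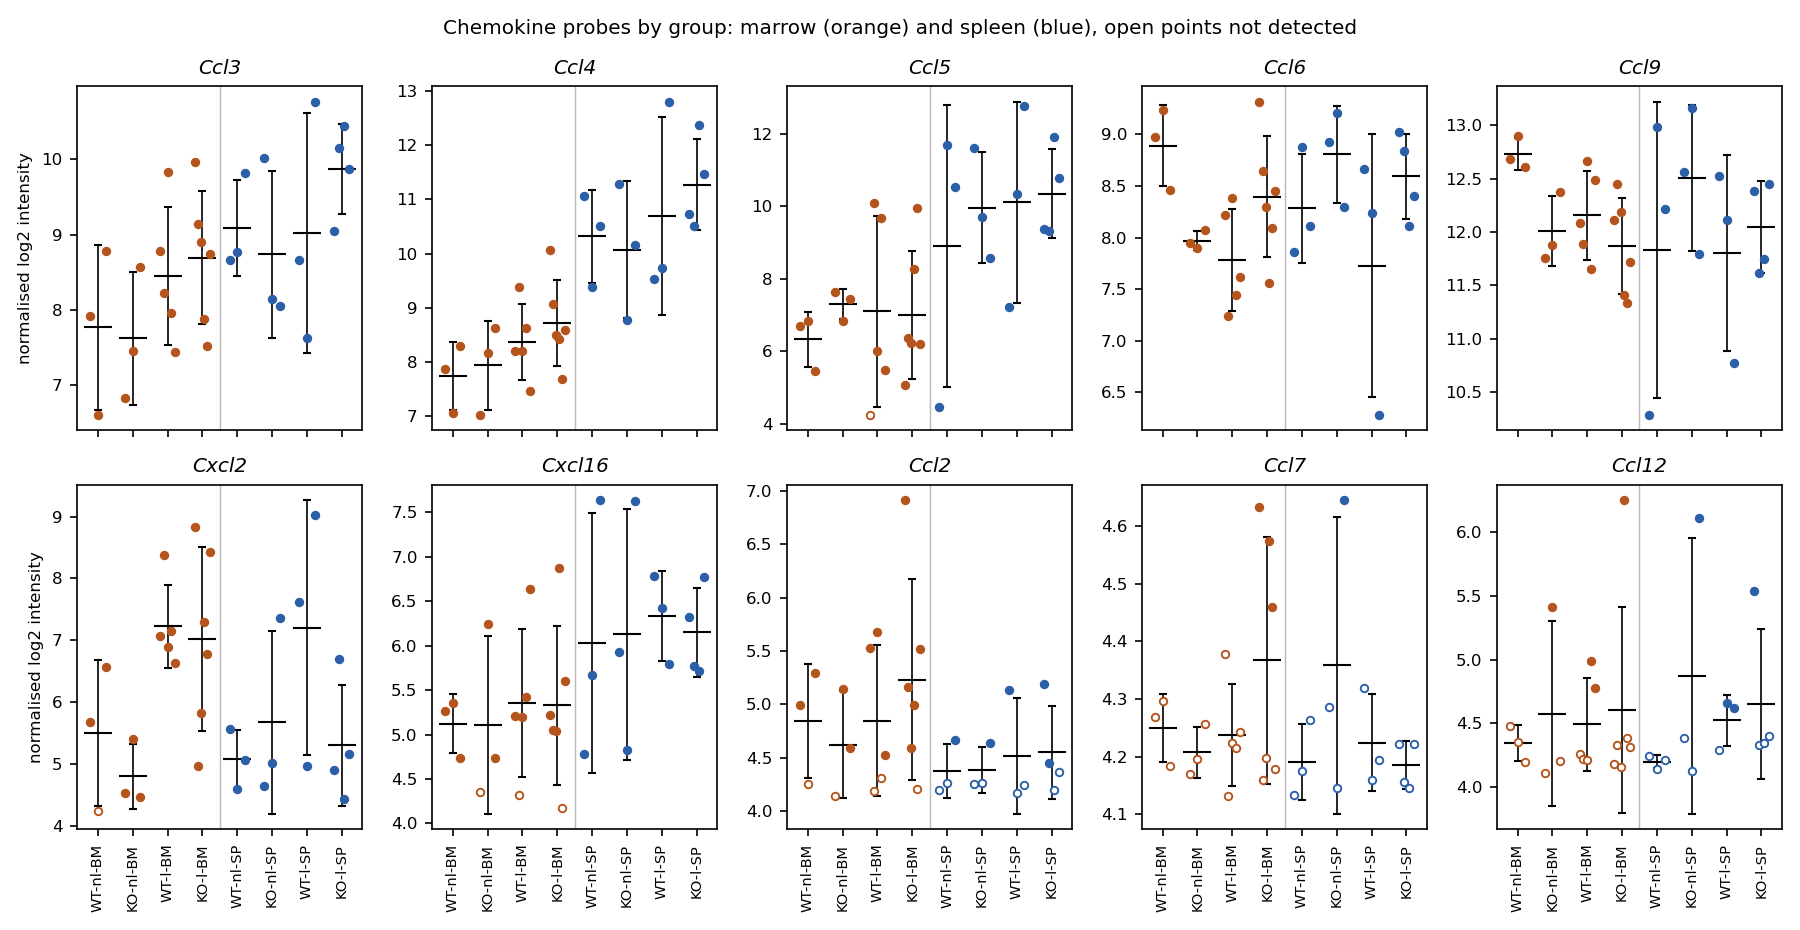
Normalised log2 intensity of the 10 chemokine genes (y axis, own scale in each panel) on each array of the 8 groups (x axis), marrow in orange and spleen in blue. Filled points were detected and open points not, and bars show the mean and SD. Ccl4 stands higher in spleen than in marrow in each pairing of genotype and leukaemia, while Ccl7 and Ccl12 are mostly open points.

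The first comparison asks how splenic macrophages differ from those of the marrow. Over the mean of the 4 states (each genotype with and without leukaemia), Ccl4, Ccl5 and Ccl3 rose in spleen and none of the 10 genes fell. That is 3 of 10 called by limma, where 15.7% of all genes tested were called and 8.5% were called higher in spleen. The median difference over the 10 genes was +0.08 on the log2 scale, against 0.01 over all genes. Within single states the background was 3.86% called in non-leukaemic wild types, 0% in non-leukaemic knockouts, 0.0168% in leukaemic wild types and 2.35% in leukaemic knockouts, and of the 10 genes Ccl4 was called in the leukaemic knockouts and none in the other 3 states. In each of those 3 states 1 of the 10 had an unadjusted p under 0.05 in limma. Of all 11937 genes, 2394 had it in non-leukaemic wild types, 1268 in non-leukaemic knockouts and 1227 in leukaemic wild types. In these 3 states the share of members was thus not above that of all genes. In leukaemic knockouts 3 of 10 members and 2451 of all genes had an unadjusted p under 0.05. Over the mean of the 4 states these were 4 of 10 members and 3593 of all genes.

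Ccl4, a chemokine made by activated macrophages, NK cells and T cells, showed the clearest difference. Its intensity was 249, 172 and 313 on the WT-nl-BM arrays, 231, 366 and 505 on the KO-nl-BM arrays, and 218, 825, 329, 346 and 288 on the WT-l-BM arrays. In KO-l-BM the lowest, median and highest of 6 arrays were 309, 454 and 1239. In every state the lowest spleen array lay above the highest marrow array after normalisation. The spleen arrays had 2976, 633 and 1541 in WT-nl-SP and 1949, 584 and 1473 in KO-nl-SP. They had 814, 816 and 9548 in WT-l-SP and 1691, 1464, 3119.8 and 2219.7 in KO-l-SP. Over all states together WT-l-BM replicate 2 and KO-l-BM replicates 1 and 2 reached into the spleen range, both before and after normalisation. Normalised log2 intensity averaged 10.59 in spleen and 8.19 in marrow over the 4 states, a log2 difference of +2.40 ± 0.35 (SE), or 5.26-fold, with limma adjusted p = 8.92e-05. The gene ranked 58 of 11937 by p. The second probe of Ccl4 gave +2.13 and correlated with the first at r = 0.98 over the 30 arrays. By state the log2 difference was +2.58 ± 0.76 in non-leukaemic wild types (limma adjusted p = 0.054), +2.13 ± 0.76 in non-leukaemic knockouts (0.269), +2.32 ± 0.68 in leukaemic wild types (0.197) and +2.55 ± 0.60 in leukaemic knockouts (0.0334). Of the 4 states, the call in leukaemic knockouts did not hold with slide as a fixed block, where limma adjusted p = 0.179, with the replicate number as a block (0.0981), with no filter (0.053), with the compared groups alone (0.0552), nor without any 1 of KO-l-BM replicates 4, 5 and 6 and KO-l-SP replicates 3 and 4, where it reached 0.166. The mean over the 4 states was called in each alternative tried, at +2.15 without the 5 arrays named above.

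Ccl3, which acts on Ccr1 and is often made together with Ccl4, rose less. Its intensity was 254, 141 and 417 in WT-nl-BM, 210.2, 252 and 490.4 in KO-nl-BM and 291, 404, 820.3, 249 and 285 in WT-l-BM, with 286, 531 and 1167 as the lowest, median and highest in KO-l-BM. In spleen it was 671, 432 and 978 in WT-nl-SP and 880.2, 389.7 and 396 in KO-nl-SP. The leukaemic spleen arrays had 465, 248 and 2728 in WT-l-SP and 556, 1143, 818 and 803 in KO-l-SP. After normalisation the tissues overlapped in each of the 4 states, while the raw intensities of the non-leukaemic wild types did not. The log2 difference was +1.05 ± 0.35 (SE), or 2.07-fold, with limma adjusted p = 0.0435. This call was close to the threshold: with slide as a fixed block the difference was +0.67 with limma adjusted p = 0.307, and in 17 of the 30 fits that left out 1 array it was not called, with adjusted p up to 0.0958. Without the 5 arrays it was +0.84 with adjusted p = 0.138. Ccl3 and Ccl4, neighbours at the end of the chromosome 11 series, correlated at r = 0.78 over the 30 arrays and at 0.72 after the group means were taken out. Ccl4 was the gene most like Ccl3 of 9182 genes detected on at least 15 arrays, ahead of Jund (0.76) and Bcl2 (0.72). The genes most like Ccl4 were Bcl2 (0.83), Klf6 (0.83) and Rgs1 (0.82). These correlations are over arrays that also differ in tissue and cell mixture.

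**Figure D2:**
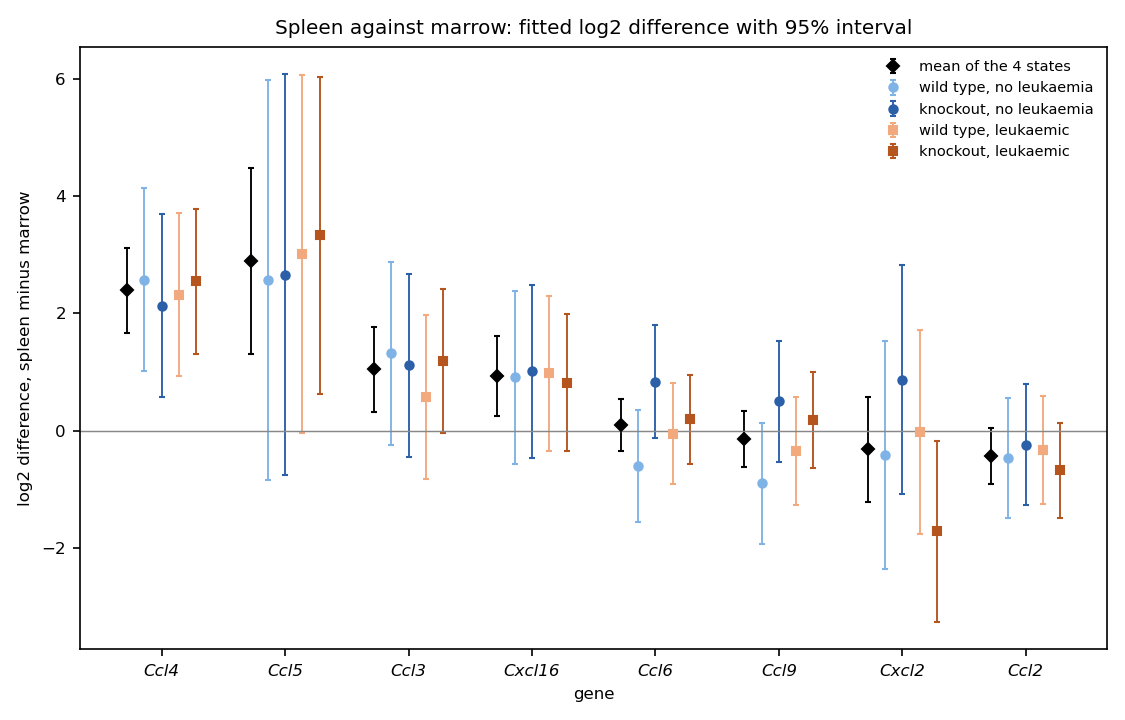
Fitted log2 difference, spleen minus marrow (y axis), with its 95% interval for the 8 chemokine genes with fitted differences in the text (x axis), as the mean of the 4 states (black diamonds) and in each state. The interval of Ccl4 lies above 0 in each state, that of the mean also for Ccl5, Ccl3 and Cxcl16, and Ccl6 and Ccl9 straddle 0.

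Ccl5, a ligand of Ccr1 that is best known from T and NK cells, was the most variable of the 10. Its intensity was 142, 156 and 100.4 in WT-nl-BM, 325, 188 and 262 in KO-nl-BM and 75.8, 1315, 139, 624 and 128 in WT-l-BM, with 97.6, 149.9 and 1159 as the lowest, median and highest in KO-l-BM. It was 87.8, 2993 and 1576 in WT-nl-SP and 2409, 1084 and 539.8 in KO-nl-SP. It was 211, 1208 and 9103 in WT-l-SP and 687, 683, 2125 and 1406 in KO-l-SP. Most spleen arrays were above most marrow arrays, but the ranges overlapped. WT-nl-SP replicate 1, at 87.8, lay with the lowest marrow arrays and WT-l-SP replicate 1, at 211, within the marrow range, while the marrow arrays at 1315, 1159 and 624 were above the lowest KO-nl-SP array. The log2 difference between the tissues was +2.90 ± 0.77 (SE), or 7.44-fold, with limma adjusted p = 0.0119, and the call held in each alternative tried, at +3.28 without those 5 arrays. By state it was +2.57 ± 1.66 in non-leukaemic and +3.01 ± 1.48 in leukaemic wild types, and +2.66 ± 1.66 in non-leukaemic and +3.34 ± 1.31 in leukaemic knockouts, none of them called (limma adjusted p from 0.151 to 0.589). Leaving out 1 array moved the wild-type values to between 1.17 (without WT-nl-SP replicate 2) and 4.79 (without WT-nl-SP replicate 1) with no leukaemia, and to between 1.69 (without WT-l-SP replicate 3) and 4.46 (without WT-l-SP replicate 1) with it.

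Levels of T and NK cell genes moved with Ccl5. Of 9182 genes, those most like Ccl5 over the 30 arrays were Klrd1, an NK cell receptor subunit (r = 0.92), Sh2d2a, a T cell adaptor (0.90), and Klre1, another NK cell receptor (0.88). After group means were taken out, Klrd1 stood at 0.91, Cd27 at 0.88 and Sh2d2a at 0.87. In the T and NK cell list 4 of 17 measured genes rose in spleen and none fell, among them Cd2 at +1.31 ± 0.31, Il2rb at +0.66 ± 0.22 and Zap70 at +1.31 ± 0.44 (log2, SE), and the median of the list was +0.91. The lowest sum of the list, 272, was on WT-nl-SP replicate 1, where the Ccl5 intensity was 87.8, and the highest among the marrow arrays, 2889, on WT-l-BM replicate 2, where it was 1315. Ncr1, an NK cell receptor, was not detected in any non-leukaemic group and on 1 array each of KO-l-BM, WT-l-SP and KO-l-SP. Ccl4 on WT-nl-SP replicate 1, with that lowest T and NK cell sum, had an intensity of 2976, the third highest of all arrays. That is a single array, set apart from its group as stated above. Ccl5 and Ccl4 correlated at r = 0.57 over all arrays and at 0.16 after group means were taken out, and Ccl5 and Ccl3 at 0.31 and 0.01. The part of T and NK cell RNA in the Ccl5, Ccl4 and Ccl3 differences was not tested.

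**Figure D3:**
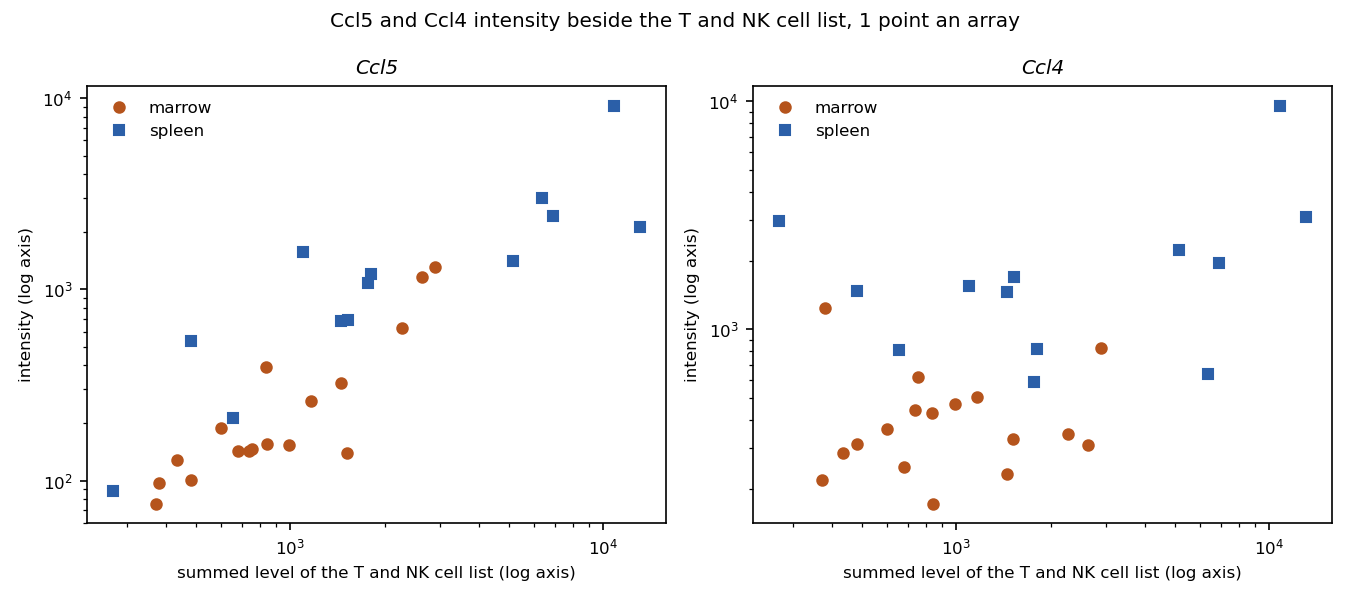
Intensity of Ccl5 (left) and Ccl4 (right) on a log axis against the summed level of 17 T and NK cell genes on a log axis, 1 point an array, marrow in orange and spleen in blue. Ccl5 climbs with the list over both tissues. The spleen array with the lowest sum (272), an array set apart from its group, has a Ccl5 intensity of 87.8 and a Ccl4 intensity of 2976.

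Other members did not pass the test between tissues. Cxcl16, the transmembrane ligand of Cxcr6, was at +0.93 ± 0.33 on the log2 scale with limma adjusted p = 0.0569, close to the threshold. After normalisation its log2 intensity was 6.03 ± 1.46 (SD, n = 3) in WT-nl-SP, 6.13 ± 1.41 (SD, n = 3) in KO-nl-SP, 6.33 ± 0.50 (SD, n = 3) in WT-l-SP and 6.15 ± 0.50 (SD, n = 4) in KO-l-SP, and 5.11 to 5.36 on average in the 4 marrow groups. All 13 spleen arrays and 14 of 17 marrow arrays detected it. Without the 5 arrays it was called, at +1.25 with adjusted p = 0.0176. The probe lay near background, and its second probe, detected on 14 arrays, gave +0.29. Genes most like Cxcl16 were H2-Aa (r = 0.85), Ciita (0.83) and H2-DMb1 (0.80), of which H2-Aa is an MHC class II chain and Ciita the class II transactivator. In the dendritic cell list 4 of 7 measured genes rose in spleen, with Batf3 at +1.91 ± 0.31, and their part in the Cxcl16 value was not tested. Ccl2, the main Ccr2 ligand, was at -0.43 ± 0.23 with limma adjusted p = 0.215. Cxcl2 was at -0.32 ± 0.44, Ccl9 at -0.14 ± 0.23 and Ccl6 at +0.09 ± 0.22, with limma adjusted p from 0.666 to 0.81. By state Cxcl2 was at -0.42 in non-leukaemic and -0.02 in leukaemic wild types. It was at +0.87 in non-leukaemic and -1.72 in leukaemic knockouts, and was called in none of these states. The second Cxcl2 probe gave -0.87 in leukaemic knockouts.

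For Ccl6 and Ccl9 no difference between the tissues was called. The Ccl9 intensity had a median of 4754 on marrow and 4419 on spleen arrays, and that of Ccl6 370.4 and 439. The 95% interval of the tissue difference was -0.62 to 0.33 for Ccl9 and -0.35 to 0.54 for Ccl6 on the log2 scale. The 2 genes correlated at r = 0.66 over the 30 arrays and at 0.71 after group means were taken out. The stretch that their windows share lies around the gene start, partly before it in Ccl6, and does not show how alike the bases under the probes are. Whether either probe also binds the other transcript was not tested. Genes most like Ccl9 were Susd3 (0.91), Ahnak (0.91) and Vnn3 (0.89), and those most like Ccl6 were Trf, the gene of transferrin (0.82), Dusp3 (0.80) and Emilin2 (0.80). WT-nl-SP replicate 1 had the lowest Ccl9 intensity of all arrays, 1861, and the lowest sum of the 7 measured monocyte genes, 1199, against 20238.5 or more on each marrow array.

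**Figure D4:**
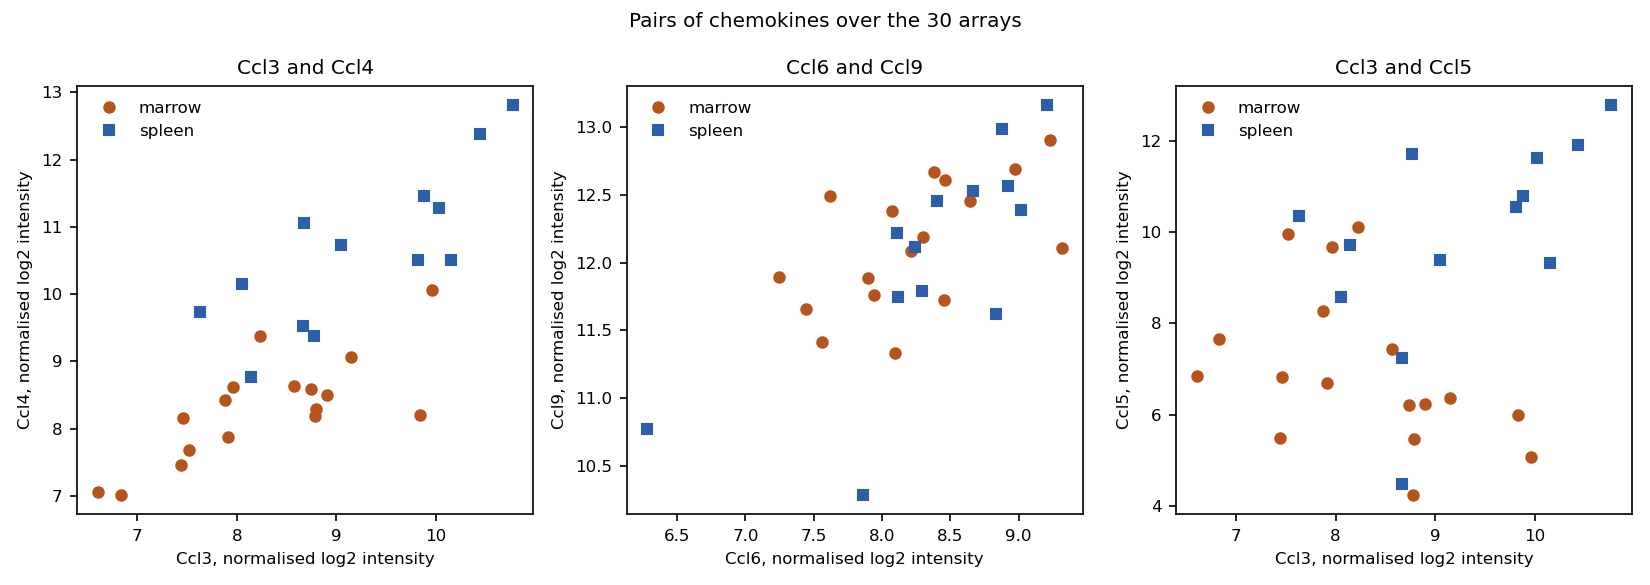
Normalised log2 intensity of Ccl3 against Ccl4, Ccl6 against Ccl9 and Ccl3 against Ccl5 (both axes log2), 1 point an array, marrow in orange and spleen in blue. Ccl3 and Ccl4 climb together (r = 0.78) and so do Ccl6 and Ccl9 (r = 0.66), while Ccl3 and Ccl5 are loosely related (r = 0.31).

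Genes around these chemokines differed between the tissues as follows. Of 12 measured chemokine receptors Ccr6, the receptor of Ccl20, rose in spleen (+1.32 ± 0.40), and none fell. Of 14 other chemokines Cxcl12, the marrow retention factor, fell by 1.32 ± 0.16 with limma adjusted p = 1.44e-05, and none rose. Of 23 NF-kB and inflammatory response genes 10 rose and none fell, with Traf1 at +2.37 ± 0.30, Nfkbiz at +1.25 ± 0.19 and Icam1 at +1.25 ± 0.22, and the list's median was +0.33. Of 19 early response genes 10 rose and 1 fell, with Dusp2 at +2.31 ± 0.21, Klf2 at +1.22 ± 0.15 and Klf6 at +0.68 ± 0.11, and a median of +0.68. Of the 3 proteases that process chemokines none was called, with Adam17 at +0.39 ± 0.17 and Dpp4 at +0.83 ± 0.44. These lists and the cell lists are read against the 15.7% of all genes that were called, the 8.5% called higher and the 865 of 11937 called lower. In the cell lists 6 of 16 macrophage identity genes rose, with Spic, a factor of red pulp macrophages, at +2.75 ± 0.26. Of 18 neutrophil genes 14 fell, with Mpo at -3.28 ± 0.53. Also 3 of 6 eosinophil, 2 of 9 basophil and mast cell, 2 of 11 erythroid and 2 of 7 monocyte genes fell. In turn 1 of 9 megakaryocyte and 1 of 8 B cell genes rose. For these last 2 lists and the chemokine receptors the share lay near that of all genes called higher. For the 14 other chemokines it lay near that of all genes called lower. The part of all the lists named here in the chemokine differences was not tested.

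The next comparison asks whether macrophages of leukaemic mice carry other chemokine levels. No member was called by limma for leukaemia in marrow or in spleen. In marrow over both genotypes 0.00838% of all genes were called, and 0% in each genotype. In spleen the shares were 0.00838% over both genotypes, 0.142% in wild types and 0% in knockouts. At an unadjusted p under 0.05 there was 1 of 10 members in marrow over both genotypes and none in spleen. Also 1 of 10 was under it in wild-type marrow, in knockout marrow and in wild-type spleen, and none in knockout spleen. Of all 11937 genes, 1774 were under it in marrow and 1890 in spleen over both genotypes. By genotype these were 1250 in wild-type and 801 in knockout marrow, and 2018 in wild-type and 634 in knockout spleen. Xist, transcribed from the inactive X of females, was unevenly spread over these groups: it was detected on 3 of 5 WT-l-BM and 1 of 6 KO-l-BM arrays but on none of the 6 non-leukaemic marrow arrays, and on 3 of 3 WT-l-SP against 1 of 3 WT-nl-SP and no knockout spleen array. The part of sex in the leukaemia differences was not tested.

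Cxcl2, the neutrophil attractant, was the member with the smallest p in leukaemic marrow. Its intensity was 100.5, 78.6 and 139 in WT-nl-BM and 89.0, 111 and 90.3 in KO-nl-BM. It was 134, 441, 186, 177 and 195 in WT-l-BM, and 95.1, 222 and 555 as the lowest, median and highest of 6 in KO-l-BM. After normalisation all 5 WT-l-BM arrays, at 6.63 to 8.38, lay above the 3 WT-nl-BM arrays, at 4.23 to 6.57, while the knockout groups overlapped. The raw intensities of these 2 wild-type groups overlapped. The log2 difference over both genotypes was +1.97 ± 0.59 (SE), or 3.93-fold, with limma adjusted p = 0.159. It was +1.73 ± 0.85 in wild types and +2.22 ± 0.82 in knockouts. The second Cxcl2 probe, detected on 25 arrays, gave +1.00 over both genotypes and +0.69 in wild types. Its normalised values in the wild types overlapped, at 5.02 to 6.90 in WT-l-BM and 4.16 to 6.32 in WT-nl-BM. Over both genotypes Cxcl2 was called with array weights (limma adjusted p = 0.00512), which called 2235 of all genes in this comparison. It was also called with the authors' log2 values (limma adjusted p = 0.0175), which called 55. In the other settings the limma adjusted p was 0.13 to 1, and none of the 17 fits that left out 1 array called it (0.0841 to 0.347). On the 3 slides that held marrow arrays of both kinds, the difference was +3.73, +1.78 and +2.39. These rest on 1 leukaemic against 2 other arrays, 2 against 1 and 1 against 2, with genotypes mixed on each slide. In the marrow of leukaemic mice Ccl3 stood at +0.88 ± 0.47 and Ccl4 at +0.71 ± 0.47, neither of them called.

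**Figure D5:**
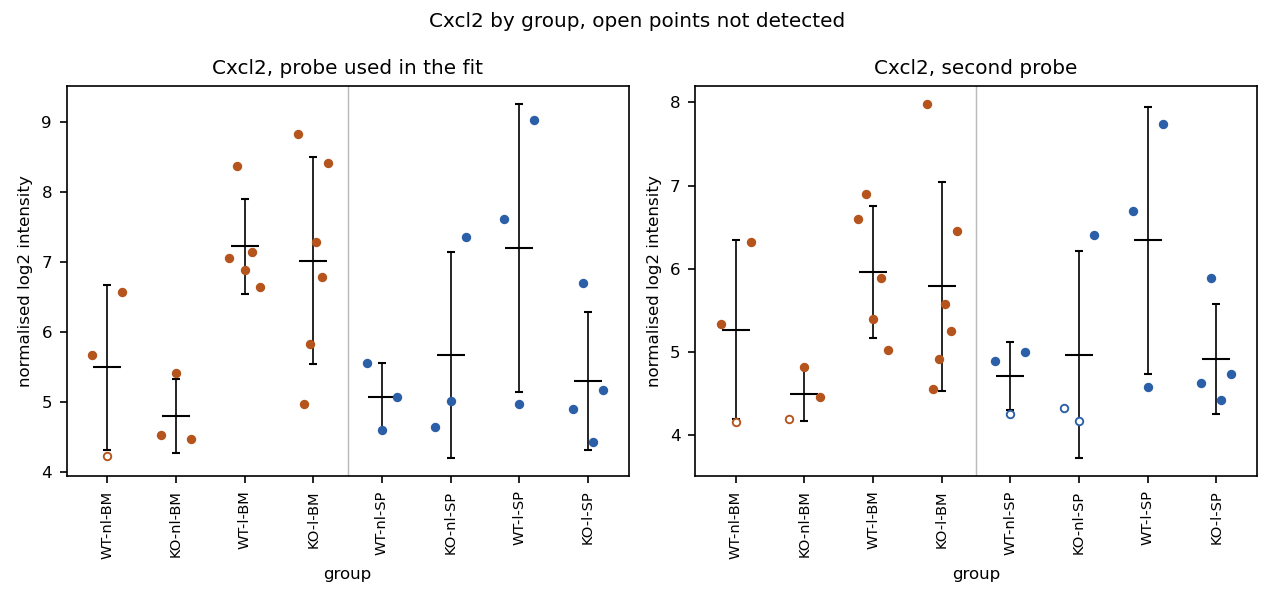
Normalised log2 intensity of both Cxcl2 probes (y axis) on each array of the 8 groups (x axis), with mean and SD, open points not detected. In marrow the WT-l-BM arrays of the probe used in the fit, at 6.63 to 8.38, lie above all WT-nl-BM arrays. Those of the second probe overlap with WT-nl-BM, and in spleen the leukaemic groups overlap with the others.

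In spleen the Cxcl2 values of leukaemic mice were spread widely. They were 260.3, 95.3 and 919.9 in WT-l-SP and 90.0, 169, 79.5 and 95.5 in KO-l-SP, against 126, 86.7 and 103 in WT-nl-SP and 89.0, 97.9 and 269 in KO-nl-SP. WT-l-SP replicate 3, with the Cxcl2 intensity of 919.9, also had the highest sum of neutrophil genes on any array, 123002.5, against 5094 and 3064 on the other WT-l-SP arrays. The log2 difference was +2.13 ± 0.95 in wild types (limma adjusted p = 0.253) and -0.37 ± 0.88 in knockouts (0.966), and +0.88 ± 0.65 over both. The wild-type value was +1.22 without WT-l-SP replicate 3 and +3.25 without WT-l-SP replicate 2. The leukaemia difference in spleen minus that in marrow was -1.10 ± 0.88 with limma adjusted p = 0.62, a comparison in which 0% of all genes and no member were called, with 1570 genes but no member at an unadjusted p under 0.05. Ccl4 stood at +0.79 ± 0.52 over both genotypes in spleen, at +0.37 ± 0.76 in wild types and +1.20 ± 0.71 in knockouts. Ccl3 stood at +0.54 ± 0.52 over both and +1.14 ± 0.71 in knockouts, and Ccl6 at -0.38 ± 0.32 over both. Single arrays carried much of the values over both genotypes: without WT-l-SP replicate 3 Ccl3 was at +0.10 and Ccl6 at -0.023, and over all fits that left out 1 array they ran from 0.10 to 0.89 and from -0.62 to -0.023.

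Early response and inflammatory genes stood beside Cxcl2 in leukaemic marrow without a call. Of 19 early response genes 15 had positive values, with a median of +0.38 against -0.03 over all genes, Egr1 at +1.79 ± 0.61 and Ier2 at +1.03 ± 0.36. Of 23 NF-kB and inflammatory response genes 17 were positive, with a median of +0.22, Birc3 at +0.68 ± 0.19 and Il1b at +1.30 ± 0.42. All 4 had limma adjusted p from 0.155 to 0.203. Other lists lay further from 0 in this comparison, also with no member called. The median was -1.12 for 11 erythroid, -0.47 for 9 basophil and mast cell and -0.45 for 7 dendritic cell genes. In each of these lists 1 gene was positive. The early response list holds genes that tissue dissociation is also known to induce, and the part of these lists in the Cxcl2 values was not tested. Among arrays Cxcl2 was most like Rpl29 (r = 0.73), Plaa (0.71) and Hnrnpa1 (0.70), and after group means were taken out most like Cpeb2 (0.77), Ager (0.77) and Ier3 (0.77).

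Ccl6 had the smallest p among the members for leukaemia in wild-type marrow. Its intensity was 468, 572 and 347 in WT-nl-BM and 221, 234, 359, 199 and 315 in WT-l-BM. All 5 leukaemic arrays lay below the 3 others after normalisation, at 7.24 to 8.38 against 8.46 to 9.23. The log2 difference was -1.11 ± 0.42 with limma adjusted p = 0.348, and in knockout marrow it was +0.43 ± 0.40 (0.891). With array weights the wild-type value was -1.23 with limma adjusted p = 0.00955, in a fit that called 1206 of all genes. In the other settings it was -1.26 to -0.63, with limma adjusted p from 0.187 to 0.999, and none of the 8 fits that left out 1 array called it.

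The last comparison asks whether loss of Mif changes chemokine levels. No member was called by limma in any of the 4 settings. The shares of all genes called were 0.0419% in marrow and 0.0419% in spleen with leukaemia, and 0.0754% in marrow and 0.268% in spleen without it. Of the 10 members 1 had an unadjusted p under 0.05 in leukaemic spleen and none in the other 3 settings. Of all 11937 genes, 631 had it in leukaemic spleen and 346 in leukaemic marrow. Without leukaemia 675 had it in marrow and 1220 in spleen. The 1 member under it was Cxcl2 in leukaemic spleen, at -1.90 ± 0.88 on the log2 scale with limma adjusted p = 0.938. Its intensities in WT-l-SP and KO-l-SP, given above, overlapped, and the wild-type mean rests on WT-l-SP replicate 3, without which the difference was -0.99. Xist was at 10.78 or more on all WT-l-SP and at most 4.39 on all KO-l-SP arrays, so genotype and sex cannot be told apart there.

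Ccl6 was at lower levels on all KO-nl-BM arrays (391, 318 and 370.4, or 7.90 to 8.07 after normalisation) than on all WT-nl-BM arrays (468, 572 and 347, or 8.46 to 9.23). The raw intensities overlapped and the normalised values did not. The log2 difference was -0.92 ± 0.47 with limma adjusted p = 0.866. In the other settings Ccl6 was at +0.62 ± 0.34 (leukaemic marrow), +0.86 ± 0.43 (leukaemic spleen) and +0.53 ± 0.47 (non-leukaemic spleen), with limma adjusted p of 0.795 or more. The value in leukaemic spleen was +0.14 without WT-l-SP replicate 3. Ccl9 showed the same separation in non-leukaemic marrow, at 12.01 ± 0.33 (SD, n = 3) in knockouts and 12.73 ± 0.15 (SD, n = 3) in wild types, a log2 difference of -0.72 ± 0.50 with limma adjusted p = 0.919. Ccl6 and Ccl9 moved together over the arrays (r = 0.71 after group means were taken out), so these are not separate observations. What share of all genes separates in this way was not counted, here or for the other separations given above. Ccl9 was at -0.29 ± 0.37 in leukaemic marrow and +0.67 ± 0.50 in non-leukaemic spleen. Without leukaemia Ccl5 was at +0.97 ± 1.66 in marrow and +1.06 ± 1.66 in spleen. The intervals of these differences are wide: that of Ccl5 in non-leukaemic spleen runs from -2.36 to 4.48 and that of Ccl6 in non-leukaemic marrow from -1.88 to 0.04.

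By group, the order of the means placed the 4 spleen groups above the 4 marrow groups for Ccl4, Ccl5, Ccl3 and Cxcl16. What share of all genes has such an order by tissue was not counted, here or for Ccl2 below. For Ccl4 the order ran from KO-l-SP at 11.27 ± 0.84 (SD, n = 4) through WT-l-SP, WT-nl-SP and KO-nl-SP at 10.07 ± 1.26 (SD, n = 3) to KO-l-BM at 8.72 ± 0.79 (SD, n = 6) and down to WT-nl-BM at 7.74 ± 0.62 (SD, n = 3). Only the step from KO-nl-SP to KO-l-BM, 1.35, was larger than the greater SD of the 2 groups. For Ccl5 no step between neighbours exceeded that SD, and for Ccl3 the step from KO-l-SP to WT-nl-SP, 0.79, was the only one that did. From the lowest spleen to the highest marrow group the step was 0.05 for Ccl3 (SD 1.11) and 0.67 for Cxcl16 (SD 1.46). For Ccl2 the 4 marrow groups stood above the 4 spleen groups, from 5.23 ± 0.94 (SD, n = 6) in KO-l-BM to 4.38 ± 0.25 (SD, n = 3) in WT-nl-SP, with no step above the SD. Cxcl2 put WT-l-BM, WT-l-SP and KO-l-BM first, at 7.22, 7.20 and 7.02, followed by KO-nl-SP at 5.67, a step of 1.35 that was below the SD of 1.48.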

How the data were processed

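Per the labels' protocols, RNA of sorted macrophages was made into biotin-labelled cRNA and put on 1 bead array per sample. The deposited non-normalised table lists, for 45281 probes on 30 arrays, the authors' linear intensity and detection p-value. The authors' log2 values form another deposited table; the submitters' processing notes name Partek without a version, and no source used here gives the normalisation. Its columns had medians of 6.41 and correlated at 0.99 to 0.997 with log2 intensity; whether values were also adjusted for slide or centred is unknown, which can inflate counts of calls.

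The neqc function of limma 3.58.1 (R 4.3.3; offset 16) corrected the intensities for background and applied quantile normalisation. A probe was kept if 3 or more arrays detected it at p under 0.05 (23515 probes), and the brightest kept probe of each gene was used. The platform annotation gave 1 symbol to 34885 probes, several to 18 and none to 10378, and 34807 were matched by gene ID to RefSeq GRCm38.p6 for current symbols. A limma model with 8 groups, which share 1 estimate of the spread, was fitted over all 11937 genes with 16 contrasts and Benjamini-Hochberg adjustment at 0.05. The fit was tested on simulated data. The number of arrays limits the precision, and no arrays held identical values (highest correlation 0.994).

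Named genes are the 10 members, Mif and Adgre1, of each of 15 gene lists up to 3 called genes or the 2 with the smallest p, and the 3 genes most like each member; T and NK cell and Xist values were added as checks. Members, lists and rules were chosen with earlier results of these data known. Replicate numbers were not shown to pair samples: over 31 same-numbered pairs the correlation of deviations from group means was -0.50 to 0.48. The results were also computed with an offset of 50, 75th percentile scaling or no background correction, on the authors' log2 values, with a strict filter (detection p under 0.01 on at least 15 arrays) or none, with slide (6 slides) or replicate number as a block, with array weights, on the groups compared only, on every kept probe, and after leaving out arrays singly or 5 together (KO-l-SP replicate 2, WT-nl-SP replicate 1, WT-l-SP replicate 3, KO-nl-BM replicate 1 and KO-nl-SP replicate 5).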

Additional observations from a re-analysis of the deposited data

Results flagged for a closer look

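The Ccl12 probe stood far from the rest of its group on 2 arrays, out of 30 groups of a gene with 4 to 6 arrays each that were examined. On KO-l-BM replicate 4 its normalised log2 intensity was 6.25 and on the other 5 arrays 4.16 to 4.38, where it was not detected. On KO-l-SP replicate 1 it was 5.54 and on the other 3 arrays 4.33 to 4.40, again not detected. For normally distributed values chance sets apart about 1 in 20 groups, and whether that rate holds for values at background was not tested. The raw intensities were 156 and 105.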

How the results depend on the processing

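Ccl4 and Ccl5 were called higher in spleen, over the mean of the 4 states, under each of the 13 other settings and without each of the 30 arrays. Ccl4 ranged from 1.83 to 2.56 and Ccl5 from 2.31 to 3.45 on the log2 scale. Of these settings, the fit on the compared groups keeps all 30 arrays here and so repeats the main fit. The random slide block, with a within-slide correlation of 0.016, comes close to it. Ccl3 was not called with the authors' values (0.58), without background correction (0.88), without a filter (1.05), with slide as a fixed block (0.67), without the 5 arrays together (0.84), nor without KO-l-BM 4, 5 or 6, KO-l-SP 2, 3 or 4, KO-nl-BM 1 or 2, KO-nl-SP 4, WT-l-BM 2, 4 or 5, WT-l-SP 1 or 3, WT-nl-BM 1 or 2 or WT-nl-SP 3, at 0.83 to 1.22 over the 30 fits. Cxcl16 was called with the authors' values (0.44), the strict filter (0.93), array weights (1.06), without the 5 arrays (1.25) and without any 1 of 6 arrays. The count of members called there stayed at 2 to 4 of 10.

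For wild types without leukaemia the count was 1 in place of 0, Ccl4, with the authors' values, 75th percentile scaling, the strict filter, array weights, the replicate block and without WT-nl-SP replicate 2; over the fits that left out 1 array it was 0 to 1. For leukaemic knockouts it was 2 with the authors' values and 0 without a filter, with slide as a fixed block, with the replicate block and with the compared groups alone, and 0 to 1 over the fits that left out 1 array. Array weights gave 1 call for leukaemia in each of wild-type marrow (Ccl6), knockout marrow (Cxcl2) and marrow over both genotypes (Cxcl2). They also gave 1 for Mif loss in non-leukaemic marrow (Ccl6). Of all 11937 genes they called 1206, 351, 2235 and 1448 in these comparisons, in that order. The authors' values gave 1 call for leukaemia in wild-type spleen, 2 in knockout spleen, 1 in marrow and 4 in spleen over both genotypes. Of all genes they called 1736 in wild-type spleen, 598 in knockout spleen and 2957 in spleen over both genotypes. The cause was not tested.

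Signs turned for differences that were not called. With array weights Ccl3 and Ccl4 in leukaemic spleen were at -0.17 (both genotypes) and -0.14 (wild type). With the authors' values Cxcl2 in leukaemic knockout spleen was 0.82, and Ccl5 for Mif loss -0.078 in non-leukaemic marrow and -0.18 in spleen. Cxcl2 in leukaemic knockout spleen was also 1.19 with slide as a fixed block and 0.20 with the replicate block. Without the 5 arrays Ccl3 was -0.20 in leukaemic spleen over both genotypes and -0.30 between tissues in leukaemic wild types, Ccl4 -0.31 in leukaemic wild-type spleen, Ccl9 0.10 between tissues, and for Mif loss in non-leukaemic spleen Ccl5 -1.03 and Ccl9 -0.42. Over the fits that left out 1 array, Ccl3 between tissues in leukaemic wild types was -0.30 to 1.27, Ccl4 in leukaemic wild-type spleen -0.68 to 0.95, Ccl6 between tissues -0.023 to 0.27, Ccl9 -0.29 to 0.049, Cxcl2 in leukaemic knockout spleen -0.89 to 0.47, and for Mif loss in non-leukaemic spleen Ccl5 -1.16 to 2.46 and Ccl9 -0.10 to 1.25. The replicate block left 3 members called over the 4 states (Ccl4 at 2.41), and the numbers were not shown to pair the arrays.

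Counts of called genes over all genes tested also moved. Between tissues over the 4 states 1308 (slide as a fixed block) to 3275 (authors' values) genes were called against 1880. By state the ranges were 13 to 1933 in wild types without leukaemia, 0 to 766 in knockouts without it, 0 to 269 in leukaemic wild types and 4 to 1366 in leukaemic knockouts. For leukaemia they were 0 to 1206 in wild-type, 0 to 351 in knockout and 0 to 2235 in all marrow, each highest with array weights, and 0 to 1736, 0 to 598 and 0 to 2957 in spleen, each highest with the authors' values, which also gave the 369 genes for the difference between these effects. For Mif loss they were 3 to 10 in leukaemic marrow, 2 to 33 in leukaemic spleen, 2 to 1448 in non-leukaemic marrow and 2 to 331 in non-leukaemic spleen. The cause was not tested. Ccl2, Ccl7 and Ccl12 lay near background, which limits what these arrays can show of them.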
